A study of Rattus norvegicus with 8 samples.

Results

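The nuclear genes of oxidative phosphorylation, the set of mitochondrial enzyme complexes that turns the energy of NADH and succinate into ATP, were compared between male and female rat kidney cortex. Members were chosen by gene symbol alone: genes whose rat symbol begins with Ndufa, Ndufb, Ndufc, Ndufs, Ndufv, Uqcr, Cox4 to Cox8 or Atp5f, Atp5m and Atp5p, together with Sdhb, Sdhc, Sdhd, Cyc1 and Cycs. Of the 14737 genes that could be named on the array, 79 fitted this rule, and 78 of them had a probe well above background. Each gene is represented by its brightest probe, and all 78 of these probes were well above background on all 8 arrays. Cox8c, a subunit isoform of testis, had a probe that was well above background on 0 arrays and is not among the 78. Genes of the same families without a named probe, such as Cyc1, Ndufa13, Uqcr11, Cox7a1 and Atp5mc3, were not analysed here.

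Adult RCCHanTMWIST rats, an outbred Wistar stock, gave 4 male and 4 female samples. No treatment was given. RNA of a cortical kidney slice from each rat was labelled with Cy3 and hybridised to its own one-colour array, and all 8 arrays lay on 1 slide. Marker genes of the early and middle proximal tubule (9 of 9) and of the glomerulus (7 of 7) had tested probes, but so did 7 of 8 fat genes and 6 of 8 skeletal muscle genes, so this does not test the tissue label. Adult is the only age given.

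Oxidative phosphorylation runs through 5 membrane complexes. Complexes I (NADH dehydrogenase) and II (succinate dehydrogenase) pass electrons to ubiquinone, complex III passes them to cytochrome c, and complex IV (cytochrome c oxidase) passes them to oxygen, while complex V (ATP synthase) uses the proton gradient. Proximal tubule cells, the bulk of the kidney cortex, are rich in mitochondria and depend on this pathway to drive the sodium pump that powers reabsorption. The subunits come from nuclear genes and from mitochondrial DNA. None of the 13 mitochondrially coded subunits had a named probe and they were not analysed here, so the values below concern the nuclear part.

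Of the 78 members, all but Cox8b differed by under 0.3 log2 units between males and females. Values are log2 signals minus the 75th percentile of that array's signals, and differences are male minus female. A probe was called at an adjusted p below 0.05 in limma's moderated test with Benjamini-Hochberg adjustment over all 23425 tested probes. By this rule 0 of 78 members were called, against 1889 of all tested probes (8.06%). Of all probes 3.39% were called higher in males and 4.67% higher in females, and 1.89% were called with a difference of at least 2-fold. At an unadjusted p below 0.05 in limma, 2 of 78 members passed (2.56%), Ndufa1 and Cox8b, against 25.6% of all probes.

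Apart from that of Cox8b, the members' differences were small as well as uncalled. The median log2 fold-change of the 78 was -0.06, beside -0.04 for all tested probes, and their middle range ran from -0.10 to -0.01, against -0.20 to 0.10 for all probes (lower to upper quartile). In 53 members the difference was under 0.1 log2 units in either direction, and in 77 it was under 0.3. The median standard error was 0.084 log2 units in the members and 0.111 in all probes. Of the 78 members 64 belonged to the brightest 10% of tested probes. Comparisons with all probes were not matched for brightness. For 76 of 78 members (97.4%) the 95% interval of the sex difference lay within 1.5-fold either way, which held for 69.8% of all probes. The exceptions were Uqcrq, a small subunit of complex III, with a bound of 1.56-fold, and Cox8b, with a bound of 3.40-fold. A sex difference of 2-fold or more lay outside the interval of 77 of 78 members, against 89.4% of all probes. The values of males and females did not overlap in 3 members (3.85%), Ndufa1, Ndufs7 and Sdhc, against 18.5% of all probes. In bulk tissue, fewer mitochondria-rich cells and less RNA per cell cannot be told apart, and opposite changes in different cell types would not be seen.

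**Figure D1:**
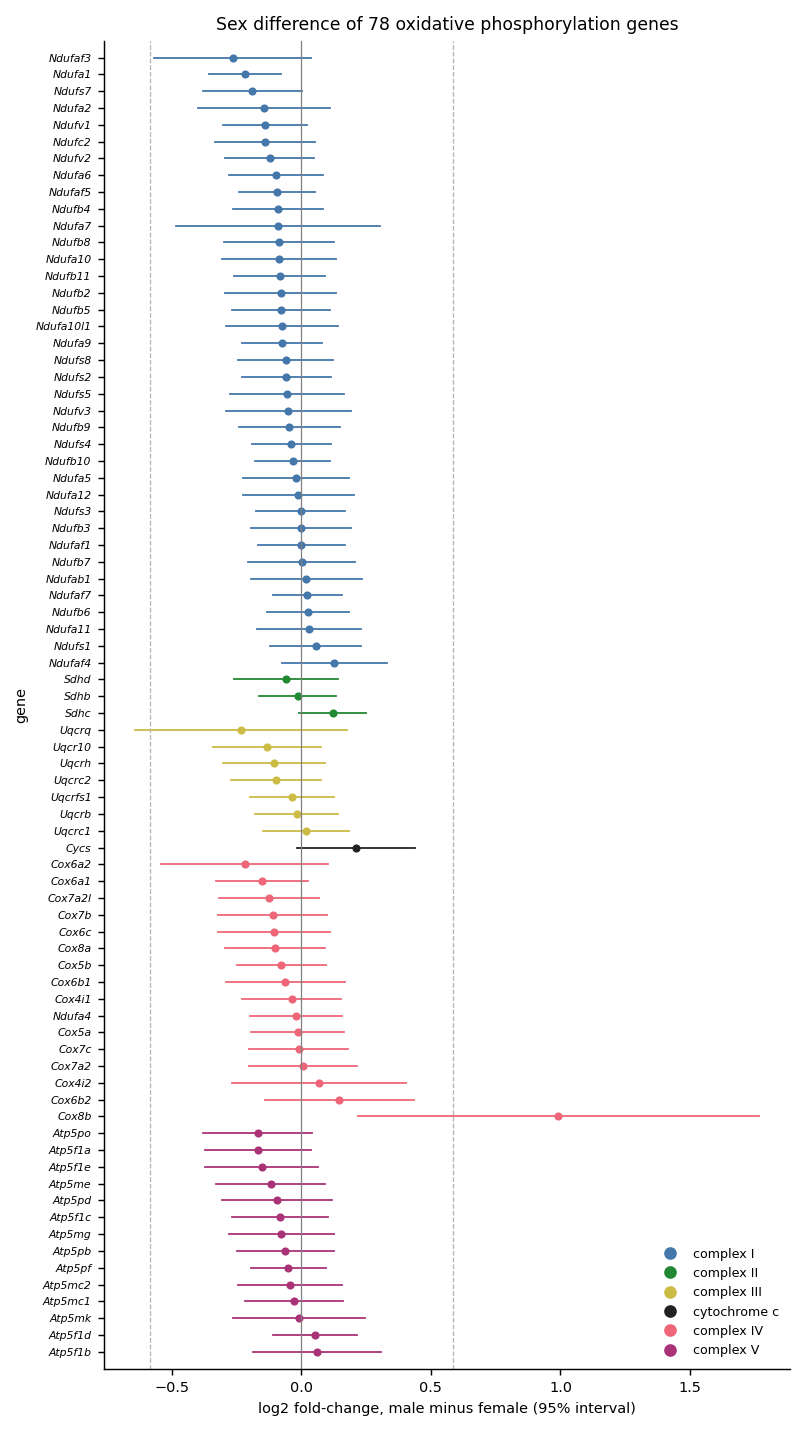
Log2 fold-change (male minus female, horizontal axis) of each of the 78 genes (vertical axis), grouped by complex; dots are limma estimates from 4 males and 4 females, bars are 95% intervals and dashed lines mark 1.5-fold. The intervals of all genes but Uqcrq and Cox8b lie between the dashed lines.

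Most members leaned slightly towards females on this scale: 61 of 78 (78.2%) had a negative difference, against 58.4% of all probes. The brightest 10% of tested probes, the class of most members, had a median difference of -0.08. The members' lean depended on the scaling between arrays. After quantile normalization 35 of 78 were negative with a median of 0.01, in the authors' quantile-normalized log2 values 30 of 78 with a median of 0.02, and without any scaling 5 of 78 with a median of 0.12. Without scaling the median of all probes was itself 0.13, and the members lay 0.02 log2 units below it. The split of all called probes moved too, from 42.1% higher in males to 54.5% after quantile normalization, 54.4% in the authors' values and 81.2% without scaling. No direction is therefore given for the members as a group.

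By complex, every member other than Cox8b differed by under 0.3 log2 units. Complex I gave 37 members with a median of -0.06. Its 7 core subunits, which carry the flavin and the iron-sulphur clusters, ran from -0.19 in Ndufs7 to 0.05 in Ndufs1. Its 25 accessory subunits ran from -0.22 in Ndufa1 to 0.03 in Ndufa11. The 5 assembly factors that the naming rule takes in, which help to build complex I and are no part of it, ran from -0.26 in Ndufaf3 to 0.13 in Ndufaf4. The 3 measured subunits of complex II, which also serves the citric acid cycle, ran from -0.06 in Sdhd to 0.12 in Sdhc. The 7 members of complex III had a median of -0.10, the lowest being Uqcrq at -0.23. In complex IV the 11 nuclear-coded subunits that are not restricted isoforms had a median of -0.06 and ran from -0.15 in Cox6a1 to 0.01 in Cox7a2, and Cox7a2l, which joins complexes III and IV into supercomplexes, was at -0.13. In complex V the 5 subunits of the F1 part, which holds the catalytic sites, had a median of -0.08, the 5 membrane subunits -0.04 and the 4 peripheral stalk subunits -0.08. The smallest adjusted p of any complex other than I and IV was 0.226 (limma, complex II).

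Ndufa1, an X-linked accessory subunit of complex I, was the member with the smallest p. Its log2 signal was 4.76, 4.80, 4.81 and 4.71 in the females and 4.59, 4.54, 4.50 and 4.57 in the males. Every male lay below every female. The difference was -0.22 (SE 0.06, n = 4 per sex, 1.16-fold higher in females), with an adjusted p of 0.0634 in limma and p = 0.0286 in the two-sided exact permutation test, the smallest that 70 assignments can give. It was -0.18 in the first row of the slide and -0.26 in the second. It passed an adjusted p of 0.05 under normexp background correction (limma, adjusted p = 0.0499) and with an intensity trend and robust prior (limma, adjusted p = 0.0225). The difference stood at -0.14 after quantile normalization, -0.13 in the authors' values and -0.04 without scaling between arrays. Ndufb11 (-0.08, limma adjusted p = 0.544) and Cox7b (-0.11, limma adjusted p = 0.493), which are also X-linked, had overlapping sexes.

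Ndufs7, a core subunit that carries the last iron-sulphur cluster before ubiquinone, showed 3.87, 3.78, 3.76 and 3.66 in females and 3.66, 3.39, 3.61 and 3.65 in males. The sexes touched without overlapping, and the difference was -0.19 (SE 0.08, limma adjusted p = 0.197). Ndufaf3, an assembly factor of complex I, gave 1.40, 1.58, 1.30 and 1.43 in females and 1.40, 1.13, 0.81 and 1.30 in males. The sexes overlapped, with male replicate 3 the lowest rat, and the difference was -0.26 (SE 0.13, limma adjusted p = 0.253). It was -0.01 in the first slide row and -0.52 in the second. Uqcrq gave -1.70, -1.82, -1.97 and -1.46 in females and -2.32, -1.87, -1.55 and -2.15 in males, a difference of -0.23 (SE 0.18, limma adjusted p = 0.461). Its values spread widely within both sexes, and its difference was -0.52 in the first slide row and 0.05 in the second.

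On the male side, Cycs, which encodes the mobile electron carrier cytochrome c, stood at 4.48, 4.66, 4.57 and 4.44 in females and 4.83, 4.79, 4.49 and 4.87 in males. Of the males, 3 were above every female and male replicate 3 was among the females. The difference was 0.21 (SE 0.10, limma adjusted p = 0.229). It reached an adjusted p of 0.0307 after quantile normalization (0.30) and 0.0231 in the authors' values (0.32). The gene's dimmer probe gave 0.07 (SE 0.11). Cycs has many processed pseudogenes in the rat genome, so its probes could also bind their transcripts. Other members, such as Atp5mg and Ndufb4, have pseudogenes too, and such binding was not tested for any member.

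Sdhc, a membrane anchor of complex II, was tightly measured at 4.19, 4.17, 4.19 and 4.14 in females and 4.31, 4.25, 4.30 and 4.32 in males. All males lay above all females by a small margin, 0.12 (SE 0.06, limma adjusted p = 0.226, exact permutation p = 0.0286). Ndufaf4, another assembly factor, gave 0.37, 0.54, 0.32 and 0.47 in females and 0.65, 0.45, 0.43 and 0.68 in males, a difference of 0.13 (SE 0.09, limma adjusted p = 0.41) with overlapping sexes.

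Cox8b was the member with the largest difference. It encodes the heart and muscle form of the smallest subunit of complex IV, is also abundant in brown fat, and stands beside the ubiquitous form Cox8a. Its log2 signal was -3.77, -5.16, -4.79 and -5.26 in the females and -3.97, -4.05, -3.81 and -3.17 in the males. Female replicates 2, 3 and 4 lay below every male, while female replicate 1 lay among the males. The difference was 0.99 (SE 0.34, 1.99-fold, 95% interval 0.22 to 1.77), with an adjusted p of 0.113 in limma and p = 0.114 in the two-sided exact permutation test. It was 1.45 in the first slide row and 0.54 in the second. Without female replicate 1, the female among the males, it rose to 1.32 and was called (limma adjusted p = 0.0229). It was not called with any other rat left out. It was 0.85 without female replicate 2 (limma adjusted p = 0.24), 0.82 without female replicate 4 (0.203) and 1.07 without male replicate 1 (0.143). Cox8a gave 5.70, 5.87, 5.77 and 5.63 in females and 5.67, 5.74, 5.48 and 5.68 in males, a difference of -0.10 (SE 0.08, limma adjusted p = 0.496). The difference of Cox8b relative to Cox8a, taken within each rat, was 1.09 between the sexes (exact permutation p = 0.0857, 0.429 after adjustment over 5 isoform pairs).

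Fat markers varied between the same rats. Ucp1, the uncoupling protein of brown fat, was at -3.07 and -4.43 in female replicates 1 and 2, at -7.09 and -6.77 in the other females and between -7.65 and -6.64 in the males. Cfd, the adipokine adipsin, followed with -1.82, -3.52, -5.38 and -4.51 in females and -5.68 to -4.81 in males. Of the 8 fat genes listed 7 had a tested probe (Lep, the fat hormone leptin, was well above background on 5 arrays), 0 were called and 2, Ucp1 and Cfd, had an unadjusted p below 0.05 in limma, and the summed log2 signal ran from -1.33 to 0.24 in females and from -1.38 to -0.87 in males. Not all fat genes followed Ucp1: Lep was highest in female replicate 4 (-7.60), and Lipe, the hormone-sensitive lipase, was highest in male replicate 2 (-5.89) and stood at -6.97 in female replicate 1. Without female replicates 1 and 2 the Cox8b difference was 1.27 (SE 0.27, 4 males and 2 females, limma adjusted p = 0.082). Of the 8 skeletal muscle genes 6 had a tested probe, 0 were called and 1, Acta1, had an unadjusted p below 0.05 in limma, and Myh1 and Myh4, which define fast muscle fibres, were well above background on 0 arrays. The smallest p values were those of Acta1, skeletal muscle actin, at -0.40 (SE 0.15, limma adjusted p = 0.15) and of Tnnt3, a fast muscle troponin, at 0.79 (SE 0.36, limma adjusted p = 0.212), which was well above background on 4 arrays. The part of fat or muscle transcripts in the Cox8b values was not tested.

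**Figure D2:**
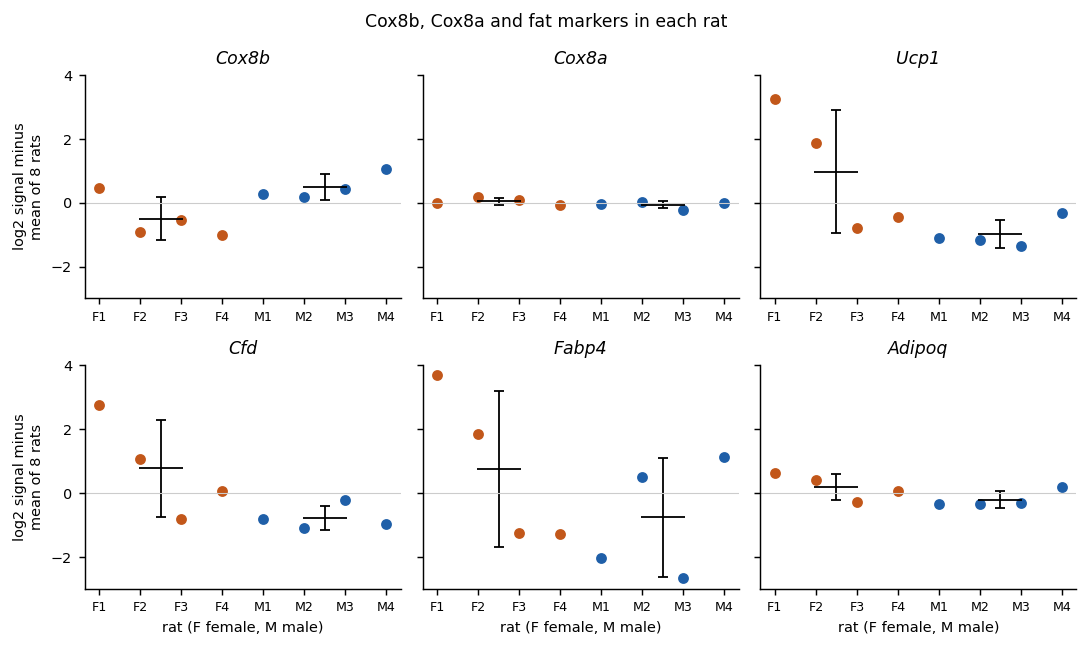
Log2 signal of Cox8b, its ubiquitous partner Cox8a and 4 fat markers in each rat (F female, M male), each centred on the mean of its 8 values; dots are rats and bars give the mean and SD of 4 rats. Ucp1, Cfd and Fabp4 are highest in female replicates 1 and 2, whereas Cox8b is low in female replicates 2, 3 and 4 and higher in all males.

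The other restricted isoforms of complex IV did not pass the test. Cox4i2, the form of subunit 4 known from lung and from vascular cells that sense oxygen, gave 2.06, 2.06, 1.63 and 1.67 in females and 2.06, 2.16, 1.71 and 1.77 in males. In both sexes replicates 1 and 2 lay above replicates 3 and 4, so that the spread within a sex exceeded the sex difference of 0.07 (SE 0.15, limma adjusted p = 0.814). Its 95% interval ran from -0.27 to 0.40. The ubiquitous Cox4i1 differed by -0.04 (SE 0.08). Cox6b2, known as the testis form of subunit 6b, gave 1.502, 1.47, 1.31 and 1.08 in females and 1.57, 1.68, 1.45 and 1.25 in males, a difference of 0.15 (SE 0.13, limma adjusted p = 0.511), beside -0.06 (SE 0.10) for Cox6b1. Cox6a2, the heart and muscle form of subunit 6a, differed by -0.22 (SE 0.14, limma adjusted p = 0.372), from -6.33 to -6.06 in females and from -6.74 to -6.06 in males. Its partner Cox6a1 differed by -0.15 (SE 0.08, limma adjusted p = 0.259). The pair Atp5mc1 and Atp5mc2, genes for an identical ring subunit of ATP synthase, differed between the sexes by 0.02 relative to each other. None of the 5 pairs passed the exact permutation test after adjustment. With 70 assignments its smallest possible p is 0.0286, so a pair could not pass alone after adjustment over 5 pairs. The absence of a call therefore says little about the pairs. The smallest adjusted p was that of Cox8b and Cox8a, and the other 4 pairs had an adjusted p of 0.714.

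**Figure D3:**
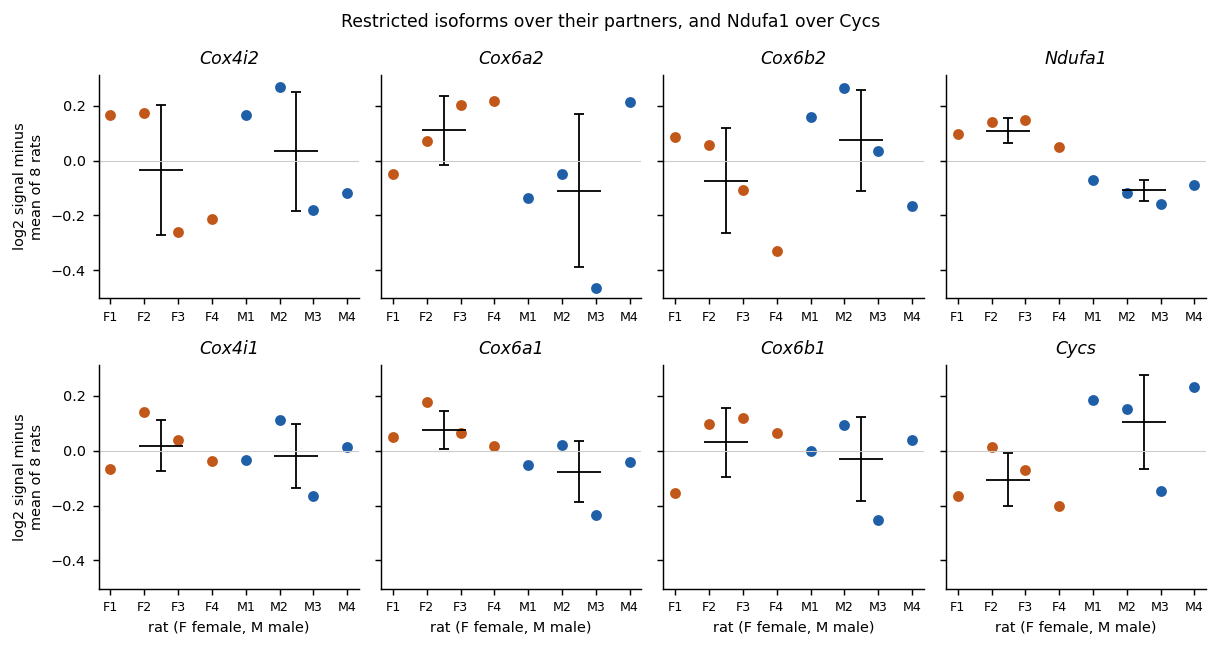
Log2 signal in each rat (F female, M male), centred on the gene's mean of 8 values, for 3 restricted isoforms of complex IV (upper row) with their ubiquitous partners (lower row), and for Ndufa1 over Cycs; dots are rats and bars give the mean and SD of 4 rats. The sexes separate in Ndufa1, and Cox4i2 is higher in replicates 1 and 2 of both sexes.

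The members moved together from rat to rat on the 75th percentile scale. Male replicate 3 was the lowest of the 8 rats in 57 of 78 members (73.1%), against 22.9% of all probes, and its median deviation from the 8-rat mean was -0.19 in the members and -0.05 in all probes. Female replicate 2 was the highest in 31 of 78 (39.7%), against 19.2% of all probes, with a median deviation of 0.09 in the members. In male replicate 3 the median deviation was -0.15 for the 7 core and -0.21 for the 25 accessory subunits of complex I, -0.13 for complex II, -0.11 for complex III, -0.20 for the 11 unrestricted subunits of complex IV and -0.21 for complex V. The mean pairwise Pearson correlation over the 8 rats was 0.45 among the members and 0.03 among all probes, and 0.49 and 0.03 once the sex means were taken out. These values share arrays and scaling and are a description only.

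Much of this joint movement changed with the scaling between arrays. The members are bright: 64 of 78 belonged to the brightest 10% of tested probes, and in that class as a whole the median deviation was -0.15 in male replicate 3 and 0.11 in female replicate 2. After quantile normalization male replicate 3 was the lowest in 26 members, with a median deviation of -0.04, and female replicate 2 the highest in 10. The mean pairwise correlation among the members was then 0.08, and 0.06 in the authors' values, against 0.001 among all probes in both. Without male replicate 3 the members' correlation was 0.18 on the 75th percentile scale and 0.04 after quantile normalization. Among all probes it was then 0.02 and 0.001. Without male replicate 3 the median sex difference of the members was 0.00 (41 of 78 negative), against -0.06 (61 of 78 negative) with all rats.

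**Figure D4:**
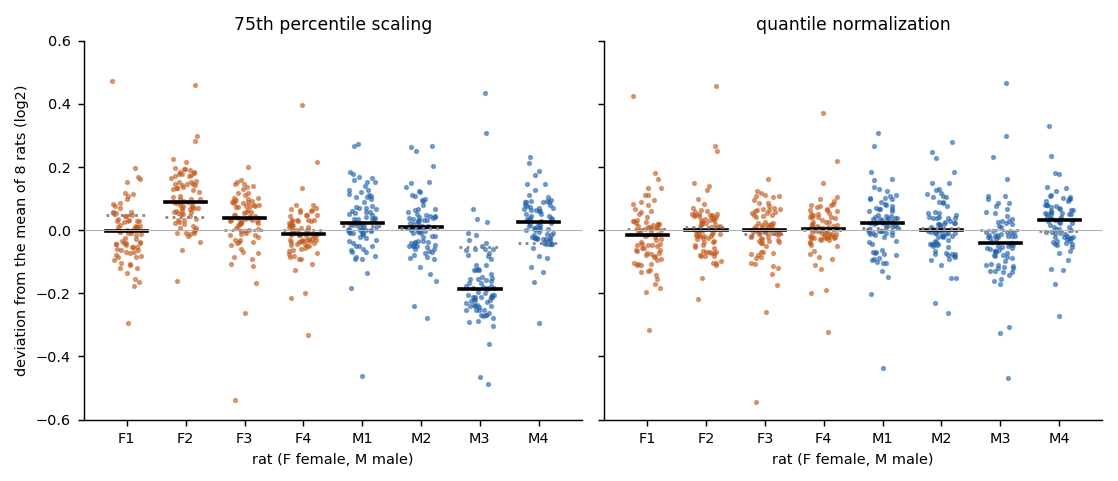
Deviation of each of the 78 members from its 8-rat mean (log2, vertical axis) in each rat (F female, M male) after 75th percentile scaling (left) and quantile normalization (right); solid bars are medians of the members, dotted bars medians of all tested probes. In each panel 3 values of Cox8b lie beyond the axis. Male replicate 3 has a member median of -0.19 on the left and -0.04 on the right.

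Where a gene had several probes, their differences were small but did not always share a sign. Examples were Ndufv3 (-0.05, 0.11 and 0.19) and Uqcrb (-0.02 and 0.10). In 16 member genes 36 probes were tested, of which 0 were called in limma and 2 had an unadjusted p below 0.05, the other probe of Atp5mc2 (-0.21, SE 0.09) and the other probe of Ndufab1 (-0.19, SE 0.07), the acyl carrier protein of complex I. The widest spread between probes of a gene was 0.25 log2 units, in Ndufv3.

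Of 86 further tested genes that serve the same pathway 2 were called, against 8.06% of all probes. Of 19 tested genes of the citric acid cycle, which feeds the chain with NADH and succinate, 1 rose and 1 fell in males relative to females. Pdha1, the X-linked E1 alpha subunit of pyruvate dehydrogenase, gave 4.31, 4.30, 4.36 and 3.98 in females and 3.85, 3.90, 3.78 and 3.82 in males. Every male lay below every female, and the difference was -0.40 (SE 0.09, limma adjusted p = 0.0389). Idh3a, the catalytic subunit of the NAD-dependent isocitrate dehydrogenase, gave -0.45, -0.54, -0.55 and -0.49 in females and -0.33, 0.03, 0.04 and -0.23 in males, all males above all females. Its difference was 0.38 (SE 0.10, limma adjusted p = 0.0496). Both calls sat close to the threshold, and neither held in the fits without female replicate 1, 2 or 3 or without male replicate 2, 3 or 4, where adjusted p in limma lay between 0.0727 and 0.117. Pdha1 was called without female replicate 4 (0.00828) but not without male replicate 1 (0.0765), and Idh3a without male replicate 1 (0.0344) but not without female replicate 4 (0.0889).

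Of 32 tested genes for assembly of the chain, 0 were called and 5 had an unadjusted p below 0.05. The smallest p values were those of Nubpl, which inserts iron-sulphur clusters into complex I (-0.25, SE 0.07, limma adjusted p = 0.0544, all males below all females), and Cox16, an assembly factor of complex IV (0.27, SE 0.10, adjusted p = 0.13). Of 18 regulators of mitochondrial biogenesis and of mitochondrial DNA 0 were called and 3 had an unadjusted p below 0.05, with the smallest p for Polg2, the accessory subunit of mitochondrial DNA polymerase (-0.29, SE 0.09, adjusted p = 0.0777), and Twnk, the mitochondrial DNA helicase (-0.20, SE 0.08, adjusted p = 0.166). Of 15 carriers, porins and import genes 0 were called and 0 had an unadjusted p below 0.05, the foremost being Slc25a4, the ADP and ATP exchanger of heart and muscle (0.18, SE 0.09, adjusted p = 0.262), and Slc25a20, the carnitine carrier (0.15, SE 0.09, adjusted p = 0.32). In complex II, Sdha differed by 0.01 (SE 0.08), Sdhaf1 by 0.05 (SE 0.07) and Sdhaf2 by 0.11 (SE 0.09). The medians of these lists ran from -0.06 in the regulators to 0.05 in the complex II genes. All p values in this paragraph are from limma over all tested probes.

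**Figure D5:**
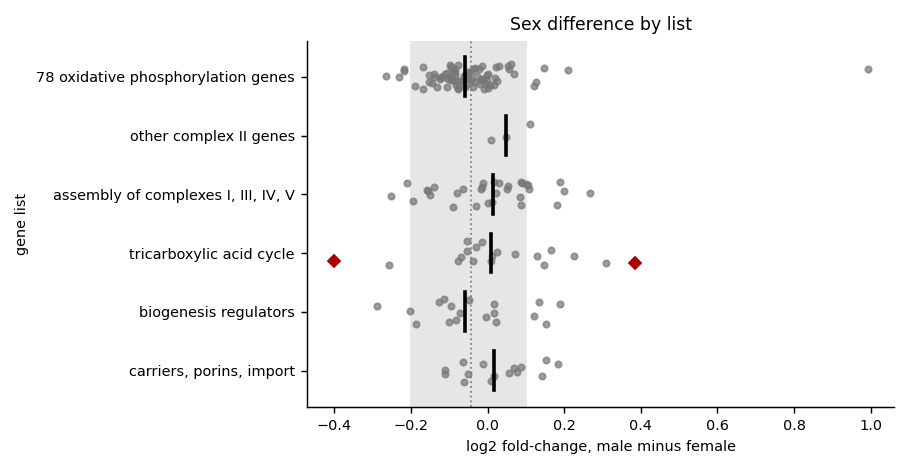
Log2 fold-change (male minus female) of the 78 members and of 5 further gene lists of the pathway; dots are genes, diamonds genes with an adjusted p below 0.05 (limma), black bars list medians, the grey band the quartiles of all tested probes and the dotted line their median. The diamonds, Pdha1 and Idh3a, are both in the citric acid cycle.

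Markers of tubule segments differed between the same arrays. Slc22a7, an anion transporter of the last proximal segment, was lower in males by -5.12 (SE 0.33), Slc5a10 of that segment by -1.49 (SE 0.26) and Aqp4, a water channel of the collecting duct, by -1.19 (SE 0.24), all called in limma (adjusted p below 0.05). Slc22a7 and Slc5a10 were the 2 called of 8 segment 3 markers. Of these 8 markers 7 had a negative difference, among them the uncalled Slc7a13 at -0.90 (limma adjusted p = 0.0639). The exception was Gatm, an enzyme of creatine synthesis, at 0.33 (limma adjusted p = 0.0706). Of 7 glomerular markers 3 were called lower in males, Cdkn1c (-0.41), Podxl (-0.27) and Ptpro (-0.34), and of 5 tested markers of the thick ascending limb 2, Cldn16 (-0.62) and Egf (-0.38). Of 9 markers of the early and middle proximal tubule Cubn was called lower (-0.59) and Slc34a3 higher (0.29) in males. Of 9 collecting duct markers Atp6v0d2 was called beside Aqp4 (-0.42). In limma 0 were called of 3 distal convoluted tubule markers (Calb1 -0.37, Slc12a3 0.18), 7 of vascular smooth muscle and pericytes (Tagln -0.31, Pdgfrb 0.14), 7 of blood (Ptprc 0.43, Cd3e 0.96) and 6 of endothelium (Plvap -0.15, Pecam1 -0.11), where the genes in brackets had the smallest p of each list, and an unadjusted p below 0.05 was found in Tagln and Ptprc only. Their part in the values of the members was not tested.

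The members are nuclear genes that factors such as NRF1 and the ETS protein GABP are known to regulate, and promoters are shown for the isoform pair with the greatest sex difference and for Ndufa1 and Cycs, whose fitted differences had opposite signs and neither of which was called. The 250 bases before the RefSeq start were found for 70 of the 78 members (GRCr8). Letters searched on both strands were GCGCANGCG (NRF1), CCGGAAG (ETS), AAGATGG (YY1), GGGCGG (Sp1) and TCAAGGTCA (ERR), none of which contains another. The NRF1 letters were found in 16 of 70 members (22.9%), against 5.09% of all 33469 promoters and 6.80% of those of protein-coding genes. The ETS letters were found in 20 (28.6%), against 7.27% and 9.01%. The Sp1 letters were found in 25 (35.7%), against 30.5% and 38.9%, the YY1 letters in 4 (5.71%), against 4.62% and 4.36%, and the ERR letters in 0, against 0.388% and 0.321%. GC content had a median of 56.6% in the members and 51.2% in all promoters, and its part in these shares was not tested. None of these letters were found in 24 of the 70 members, among them the restricted isoforms Cox6a2 and Cox6b2.

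The 4 promoters are printed 5′ to 3′ on the minus strand, the strand of each gene, with capitals for the letters found. Cox8b (chr1:205408274-205408523) and Cox8a (chr1:213833624-213833873) form the isoform pair, and Ndufa1 (chrX:121293556-121293805) and Cycs (chr4:80984768-80985017) the genes with fitted differences of opposite sign. In Cox8b the capitals mark Sp1 letters, in Cox8a ETS letters at a pair of places, in Ndufa1 ETS and then Sp1 letters, and in Cycs NRF1 letters.
Cox8b: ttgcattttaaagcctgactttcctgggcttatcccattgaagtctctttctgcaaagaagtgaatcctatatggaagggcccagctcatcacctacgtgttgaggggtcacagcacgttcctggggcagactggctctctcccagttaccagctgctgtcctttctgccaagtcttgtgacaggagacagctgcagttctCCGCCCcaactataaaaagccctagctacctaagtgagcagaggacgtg
Cox8a: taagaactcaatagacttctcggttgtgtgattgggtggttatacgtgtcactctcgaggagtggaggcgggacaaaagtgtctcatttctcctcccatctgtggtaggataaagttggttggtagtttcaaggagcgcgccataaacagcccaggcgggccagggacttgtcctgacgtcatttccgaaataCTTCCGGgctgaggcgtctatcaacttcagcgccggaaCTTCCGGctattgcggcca
Ndufa1: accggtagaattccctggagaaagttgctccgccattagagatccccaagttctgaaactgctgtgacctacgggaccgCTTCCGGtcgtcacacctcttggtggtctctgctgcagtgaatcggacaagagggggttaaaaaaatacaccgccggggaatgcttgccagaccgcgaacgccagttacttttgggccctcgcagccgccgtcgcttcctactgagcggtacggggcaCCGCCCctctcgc
Cycs: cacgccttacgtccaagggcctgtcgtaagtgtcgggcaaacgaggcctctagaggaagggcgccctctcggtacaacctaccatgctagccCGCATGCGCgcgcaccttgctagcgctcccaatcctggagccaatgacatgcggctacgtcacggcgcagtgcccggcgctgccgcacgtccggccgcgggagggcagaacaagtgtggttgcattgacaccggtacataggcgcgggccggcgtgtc
Cox8b lacked the ETS letters that its ubiquitous partner holds, which describes this window only. Most members lacked them, as only 20 of 70 held them, and so did the ubiquitous Cox4i1 and Cox6b1.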

How the data were processed

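The authors deposited for each spot a signal intensity from Agilent's Feature Extraction software, background-subtracted and without scaling between arrays, and a table of log2 values, which here held the same rank order as the signal on every array. The submitters' processing notes name limma 3.8.2. After removal of outlier spots, log2 signals were centred on the array's 75th percentile (non-control spots) and averaged per probe. Of 30367 probes, the 23425 that were well above background on 4 or more arrays were fitted as male against female in limma 3.58.1 (R 4.3.3), with Benjamini-Hochberg adjustment. In a simulation, 100 probes were changed by 0.5 log2 units, and the fit recovered 31 of them. With a change of 1 log2 unit it recovered 79 of 100. Both sizes of change were set in the same simulated table of 23400 probes, which gave 10 false calls among its unchanged probes. An absent call alone therefore does not exclude a difference of 0.5 log2 units. Isoform pairs and single genes were also compared by exact permutation. Gene names came from the probes' accessions through RefSeq (GRCr8).

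Signal rose well above background in 73.8% to 79.1% of an array's probes, without saturated spots, and 4 rats per sex limit the precision. Alternatives were quantile normalization, no scaling, the authors' log2 values, normexp (offset 50), other filters, outlier spots kept, an intensity trend with robust prior, array weights, blocks for replicate number and slide position, each rat left out, and other probe or member choices. The Cox8b fit without female replicates 1 and 2, and the rats' deviations under other scalings, were chosen after seeing the data.

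The members and lists were chosen with earlier results of these data known. Genes named are the 5 largest differences in each direction, the restricted isoforms and their partners, and in each list of other genes those called with at least 2-fold or of the smallest p. Others, such as Sdha, Fabp4, Lep, Lipe, Gatm, Slc7a13, Ndufv3, Ndufab1 and Uqcrb, were named after their values were seen.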

Additional observations from a re-analysis of the deposited data

How the results depend on the processing

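The count of 0 called members, at an unadjusted p below 0.05 in limma for 2, changed in 5 of 22 alternatives, each time by 1 gene. Members called higher in males numbered 1 after quantile normalization and 1 in the authors' log2 values (Cycs in both), and those higher in females 1 with normexp and 1 with an intensity trend and robust prior (Ndufa1 in both). With each rat left out in turn, calls higher in males ran from 0 to 1 and calls with at least 2-fold from 0 to 1, the 1 being Cox8b without female replicate 1. The members' median moved to 0.12 without scaling. It moved by less than the spread between rats in the other alternatives, -0.08 to 0.02. No isoform pair passed under any alternative run, but in these tests a pair could not pass alone.

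Cox4i1 changed sign after quantile normalization (0.048), in the authors' values (0.059) and without scaling (0.14), where Cox6a1 (0.026), Cox6b1 (0.12) and Cox8a (0.076) did too. With each rat left out, Cox4i1 ran from -0.081 to 0.011, Cox6b1 from -0.12 to 0.012, Cox4i2 from -0.0091 to 0.14 and Atp5mc1 relative to Atp5mc2 from -0.020 to 0.051, which stood at -0.017 in the authors' values. The cause was not tested.

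Of the other pathway genes, 1 called higher and 1 lower in males became 2 and 2 after quantile normalization and in the authors' values, 5 and 0 without scaling, 3 and 1 with normexp, 0 and 0 without the filter on dim probes, 1 and 2 with a filter on all arrays, 3 and 3 with trend and robust prior, 0 and 2 with array weights, 0 and 0 with the replicate block, 1 and 0 with the slide row and 0 and 0 with the slide column as a block. With each rat left out they ran from 0 to 1 in both directions.

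Deviations of same-numbered rats correlated at 0.13, 0.04, -0.01 and 0.12, and those of differently numbered rats at -0.19 to 0.12. These weak values do not settle whether replicate numbers pair the rats. Among all probes the replicate block gave 1030 calls against 1889. It called 0 members and removed Pdha1 (adjusted p = 0.0796) and Idh3a (0.111, limma). With slide column as a block 929 were called, 1194 without the filter, and 1012 to 1544 with a rat left out. The alternatives for probe choice and for leaving out the assembly factors changed no count.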
